A study of Tupaia belangeri with 15 samples.

Results

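The opsins of the tree shrew (TS, Tupaia belangeri) retina were described as a family of 7 genes, OPN1SW, OPN1LW, OPN3, OPN4, OPN5, RGR and RRH. They were taken by gene name from the 83605 features of the deposited matrices, and each name belonged to a feature of its own (TSDBGID.22725, TSDBGID.27255, TSDBGID.10879, TSDBGID.9347, TSDBGID.21122, TSDBGID.9350 and TSDBGID.414, in that order). The measured values were raw counts of unique molecular identifiers (UMIs) from single nuclei of 15 retinas, 5 labelled Infancy, 5 Mature and 5 Senile. The study profiled the retina over the postnatal lifespan, and the labels give tissue and stage but no treatment, age or sex. By the study's account the 15 retinas came from 15 healthy animals, which the labels do not state.

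Opsins are the light-binding G protein-coupled receptors of animals and carry a vitamin A aldehyde as chromophore. OPN1SW (the short-wave cone pigment) and OPN1LW (the long-wave cone pigment) start phototransduction in cones, which are the dominant photoreceptors of this day-active species. OPN4 (melanopsin) makes a small class of ganglion cells sensitive to light, OPN5 (neuropsin) is a violet and ultraviolet light receptor, OPN3 (encephalopsin) occurs in many tissues outside the photoreceptors, and RGR and RRH (peropsin) belong to the branch of retinal-binding opsins known from pigment epithelium and Müller glia.

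The libraries held between 4269 and 9856 barcodes and between 13429873 and 58734300 UMIs. Of 120437 barcodes, 119765 passed the limits on genes and mitochondrial RNA, and 68933 of these (57.6%) were placed in 1 of 11 classes by markers that include no opsin. Cones made up 16105 nuclei, rods 997, bipolar cells 25238, horizontal cells 1262, amacrine cells 10403, ganglion cells 5371 and Müller glia 7742. Microglia, astrocytes, pigment epithelium and vessels were smaller, with 692, 839, 167 and 117 nuclei. The libraries shared few barcodes, at most 30 between any pair. The labels name Cell Ranger 5.0.1 for 7 retinas and 7.0.1 for 8, while the headers of the matrices of those 7 name 6.1.2. Both kinds occurred in every stage. The default on reads from introns differs between these versions, and differences in the kit or run that go with the version cannot be told apart from it. Of 18777 features with a single gene name, 2982 (15.9%) had no UMI in any library, so that a gene at 0 need not be a silent gene.

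The family was split into 3 abundant genes and 4 genes near the limit of detection. OPN1LW gave 51121 UMIs over all barcodes, from 1059 to 8733 per library with a median of 2843, and was found in 15 of 15 libraries. OPN3 gave 5934 UMIs, from 163 to 706 per library, and OPN1SW gave 1716, from 28 to 295 per library. RGR, RRH, OPN4 and OPN5 were far rarer, with 71, 21, 20 and 16 UMIs, in 14, 11, 9 and 10 of the 15 libraries.

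The first question was in which class of the retina each opsin was found. Levels are given as CPM, the UMIs of the gene scaled to a fixed total of UMIs in the class, with the mean and SD over the retinas in which the class had 10 or more nuclei. OPN1LW stood at 561 CPM ± 176 (SD, n = 15) in cones, with a lowest retina of 339 CPM and a highest of 910.4 CPM. In bipolar cells it was 11.3 CPM ± 5.6 (SD, n = 15). The level in cones was above the highest other class of the same retina in 15 of 15 retinas, by 4.22 ± 0.83 (SD) on the log2(CPM + 1) scale (2-sided exact sign-flip permutation test, Benjamini-Hochberg adjusted over 6 genes p = 1.83e-04, from the smallest p that 15 retinas allow).

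OPN1SW was scarcer and also concentrated in cones. It was 17.2 CPM ± 7.8 (SD, n = 15) in cones, between 7.02 and 33.0 CPM, and pooled over retinas it reached at most 0.471 CPM, in bipolar cells, among the other classes with a UMI. It had none in rods, microglia, pigment epithelium and vessels, where a floor of 3 UMIs allows up to 1.08, 2.66, 3.90 and 12.2 CPM. The difference from the highest other class was 3.28 ± 0.70 (SD) on the same log2 scale, positive in 15 of 15 retinas (exact sign-flip permutation test, adjusted p = 1.83e-04). Of the 1638 OPN1SW UMIs in nuclei that passed the limits, 1329 (81.1%) lay in cones and 245 (15.0%) in nuclei without a class.

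**Figure D1:**
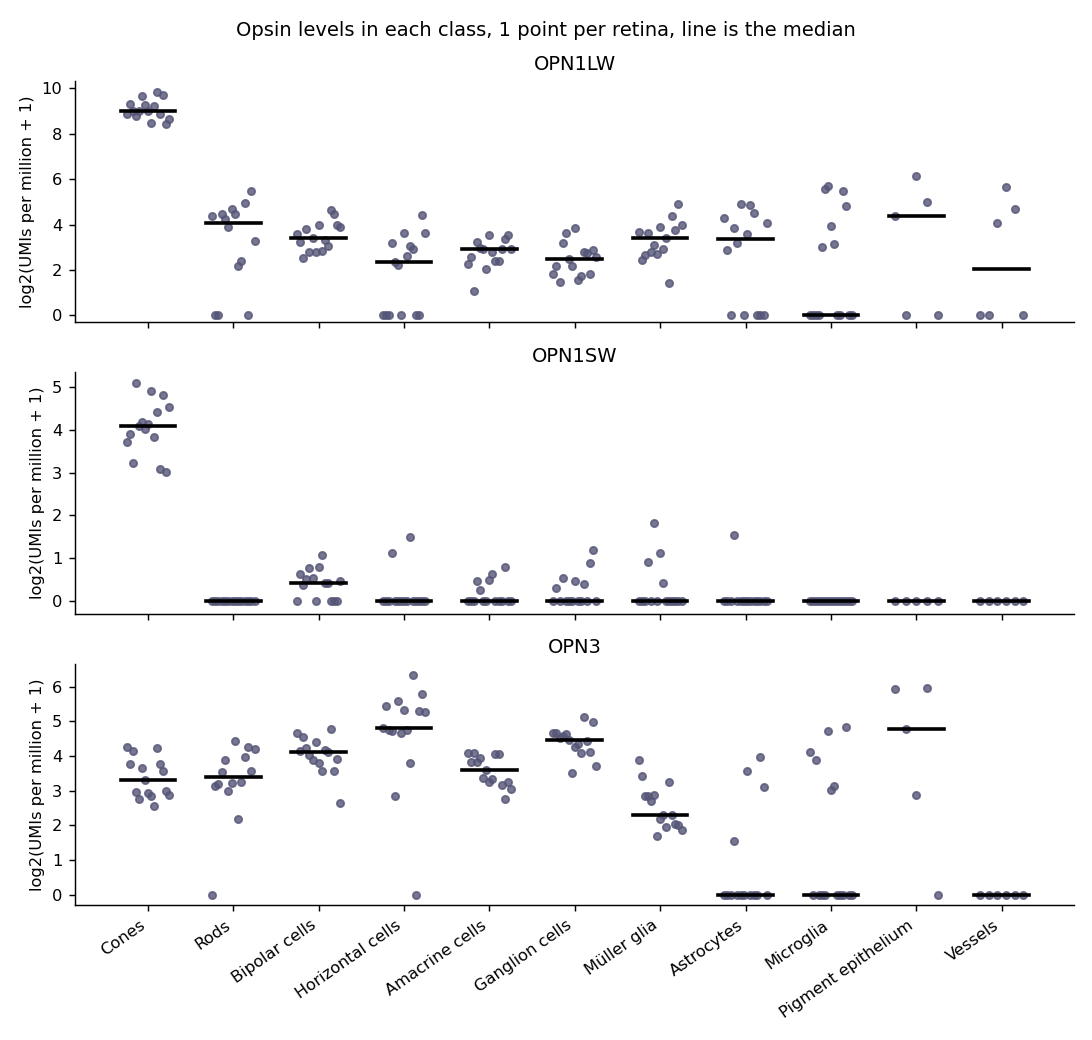
OPN1LW, OPN1SW and OPN3 in 11 retinal classes, as log2(CPM + 1), with 1 point per retina with at least 10 nuclei and a line at the median. OPN1LW and OPN1SW lie highest in cones, between 339 and 910.4 CPM for OPN1LW, whereas OPN3 is spread over horizontal, ganglion, bipolar and amacrine cells.

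A low level of OPN1LW was present in each of the 10 other classes, and OPN1SW had a UMI in 6 of them. Pooled over retinas, OPN1LW in bipolar cells was 1.85% of its level in cones, and the cone genes ARR3 (cone arrestin), PDE6C (cone phosphodiesterase) and GNAT2 (cone transducin) stood there at 1.83%, 1.90% and 1.88% of theirs. Other photoreceptor genes stood elsewhere: GRK7 (cone opsin kinase) at 0.811%, PDE6H (the inhibitory cone phosphodiesterase subunit) at 8.99% and RCVRN (recoverin) at 22.4%. All but RCVRN are markers by which cones were gated. For the ratio of the pigments, OPN1SW was 3.11% of the cone opsin UMIs in cones (95% Wilson interval 2.95% to 3.28%), 4.25% in bipolar cells (3.12% to 5.75%) and 3.27% in Müller glia (1.66% to 6.31%). The part of free RNA in these values was not tested, and no stage difference of OPN1LW outside cones is drawn from them.

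Detection per nucleus also set cones apart from bipolar cells. With every nucleus thinned to 1000 UMIs, OPN1LW was detected in 42.9% of cones and 1.13% of bipolar cells, against 78.2% of cones (median depth 3296 UMIs) and 3.33% of bipolar cells (2792 UMIs) before thinning. OPN1SW was detected in 1.33% of cones and 0.0447% of bipolar cells at that depth, and in 3.37% and 0.155% before it. Thinning left out 232 cones and 1065 bipolar cells that were shallower.

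The next question was whether a cone held 1 pigment or both. Of 16105 cone nuclei, 12587 had at least 1 OPN1LW UMI and 543 had at least 1 OPN1SW UMI, and OPN1LW gave 31.1 UMIs for each UMI of OPN1SW. Among the 9570 cones with 2 or more cone opsin UMIs, 9212 (96.3%) had OPN1LW alone, 231 (2.41%) had OPN1SW alone and 127 (1.33%) had both. The pigments were thus seen mostly one without the other. This rests largely on the many cones with OPN1LW: of those with OPN1SW, 127 had both beside 231 with OPN1SW alone. The minimum of 2 UMIs keeps every cone with both and raises that share. It left out 185 cones with 1 OPN1SW UMI and no OPN1LW UMI. Of all 543 cones with an OPN1SW UMI, 127 had both.

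Cones were called OPN1SW-dominant or OPN1LW-dominant when most of their cone opsin UMIs came from that gene. There were 255 OPN1SW-dominant cones (2.66%), 9288 OPN1LW-dominant cones and 27 with equal counts. An OPN1LW UMI was present in 24 of the OPN1SW-dominant cones (9.41%), and an OPN1SW UMI in 76 of the OPN1LW-dominant ones (0.818%). Both kinds had a median of 3 UMIs of their own pigment, and the highest count in 1 nucleus was 31 for OPN1LW and 15 for OPN1SW.

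Most nuclei with both pigments were deeper than those with 1. The 76 with more OPN1LW had a median of 9489.5 UMIs and the 24 with more OPN1SW 8671.5 UMIs, against 4085 UMIs for OPN1LW alone and 5212 UMIs for OPN1SW alone. The 27 with equal counts, at 5346 UMIs, were close to OPN1SW alone. The 76 nuclei also lay between the pure kinds in SAG (S-antigen, the rod and S-cone arrestin), with 948 CPM, against 84.7 CPM for OPN1LW alone and 2944 CPM for OPN1SW alone. In THRB, the thyroid hormone receptor that specifies long-wave cones, they had 874 CPM, close to the 879.5 CPM of OPN1LW alone and far from the 28.7 CPM of OPN1SW alone. The 27 nuclei with equal counts had 562 CPM of THRB and the 24 with more OPN1SW 244 CPM. The part of depth, free RNA or 2 nuclei under 1 barcode in these counts was not tested.

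Many cones showed no pigment. There were 3102 cone nuclei without a cone opsin UMI, with a median depth of 2244.5 UMIs. Among the 15562 cones without OPN1SW, 19.9% lacked OPN1LW, and equal OPN1LW levels in all of them at their own depths would give 17.4% by Poisson counting. Cones with no opsin UMI held SAG at 388 CPM and THRB at 788 CPM, between the pure kinds for both genes.

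**Figure D2:**
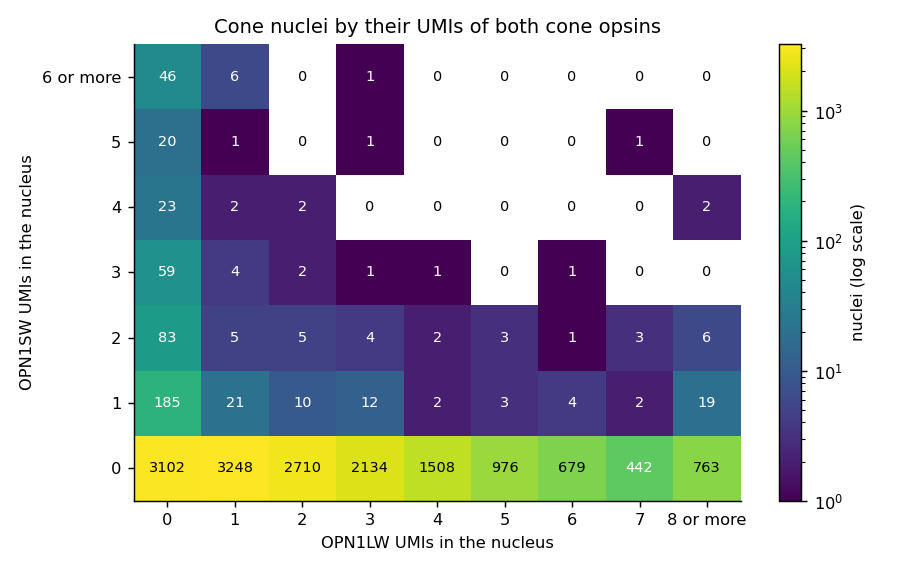
Cone nuclei by their number of OPN1LW UMIs (x axis, last column 8 or more) and OPN1SW UMIs (y axis, last row 6 or more), with the number of nuclei printed in each cell and coloured on a log scale. Nearly all nuclei lie on the 2 axes: 127 of 9570 nuclei with 2 or more cone opsin UMIs hold both.

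The kinds of cone were then compared over all genes other than the cone opsins, which had chosen them. UMIs were summed per retina and kind in the 10 retinas with at least 10 nuclei of each, giving sums of 46771 to 422388 UMIs from 11 to 45 OPN1SW-dominant nuclei and of 2021338 to 7889930 UMIs from 319 to 1866 OPN1LW-dominant nuclei. In edgeR's quasi-likelihood test with the retina as a block, 1732 of 13705 features (12.6%) passed an adjusted p of 0.05, 495 higher (3.61%) and 1237 lower (9.03%) in OPN1SW-dominant cones. The split depends on the scaling. With DESeq2's size factors it was 703 higher and 736 lower, and the median log2 difference of all features moved from -0.17 to -0.01, and DESeq2 itself called 604 higher and 454 lower.

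All 5 genes of a list of S-cone genes without opsins (SAG, VAV3, PLXDC2, CCDC136 and TBX2) were higher in OPN1SW-dominant cones, beside the 3.61% of all features that were higher, and their median log2 difference was 4.18. The list had been drawn up with earlier results of these data known. SAG ranged from 1681 to 5117 CPM (median 2762) in OPN1SW-dominant cones and from 32.5 to 174 CPM (median 85.8) in OPN1LW-dominant cones of the same retinas. The groups did not overlap, and the log2 difference was 4.75 ± 0.09 (SE), higher in 10 of 10 retinas. Here and below, the SE of an edgeR log2 difference is its size divided by the square root of the test's F statistic. It does not give the spread over retinas.

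The other list members followed SAG. PLXDC2, a transmembrane protein, was 738 CPM ± 306 against 46.9 CPM ± 15.1 (SD, n = 10 each), VAV3, a guanine nucleotide exchange factor, 203 CPM ± 79.9 against 10.3 CPM ± 3.5, and CCDC136, a coiled-coil protein, 176 CPM ± 43.9 against 4.52 CPM ± 2.0. Each was higher in 10 of 10 retinas. TBX2, a transcription factor of S-cone fate, was 37.6 CPM ± 26.2 against 7.83 CPM ± 1.7 and higher in 9 of 10 retinas. It had no UMI in the 18 OPN1SW-dominant nuclei of Senile 1.

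The genes with the largest increases were led by EPHA10, an ephrin receptor, with 139 CPM against 2.62 CPM, a log2 difference of 5.48 ± 0.26 (SE). CCDC136 came next with 5.12 ± 0.20, and C12ORF40 followed with 5.02 ± 0.25 and 127 CPM against 3.46 CPM. PRSS58, a serine protease homologue, reached 38.6 CPM against 1.53 CPM and SSUH2 59.6 CPM against 2.701 CPM. Each of these was higher in 10 of 10 retinas, of which the rule that chose them required 80%, so that the count is a description. By level, the most prominent was NRXN3, a presynaptic adhesion protein, singled out after its values were seen: 9507 CPM ± 1274 in OPN1SW-dominant cones against 727 CPM ± 203 in OPN1LW-dominant cones (SD, n = 10 each).

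CALU, a calcium-binding protein of the secretory pathway, was also among the 8 genes with the largest increases, and it was uneven across retinas, as was EPHA10, with 7.85 to 366 CPM in OPN1SW-dominant cones. In OPN1SW-dominant cones it stood at 549, 879.8, 654 and 656 CPM in Infancy 4, Infancy 5, Mature 3 and Senile 5. In Infancy 2, Mature 1, Mature 2, Mature 4, Senile 1 and Senile 3 it stood at 64.1, 195, 192, 191, 180.5 and 169 CPM. In OPN1LW-dominant cones it stayed between 21.1 and 27.7 CPM. The 4 high retinas all carry the version 7.0.1, as do Mature 4 and Senile 3 among the low ones. In the RefSeq annotation of the assembly TupChi_1.0, CCDC136 and CALU are the protein-coding genes on either side of OPN1SW. How far reads could be shared between these neighbours was not tested.

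A long noncoding feature named LINC-OPN1SW-1, singled out after its values were seen, had 14 UMIs in OPN1SW-dominant and 8 UMIs in OPN1LW-dominant cones of these retinas, or 8.97 against 0.181 CPM pooled, and was higher in 7 of 10 retinas, given as a description. Over all nuclei, 41 of its 294 UMIs (13.9%) lay in cones and 100 (34.0%) in bipolar cells, at pooled levels of 0.568 CPM in cones, 1.21 CPM in bipolar cells and 0.589 CPM in ganglion cells.

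The genes that fell most in OPN1SW-dominant cones included THRB, at 57.2 CPM ± 43.2 against 859 CPM ± 234 (SD, n = 10 each), a log2 difference of -4.01 ± 0.13 (SE). MARCHF11, a ubiquitin ligase, was 21.4 CPM ± 15.7 against 379 CPM ± 113, ST8SIA1, a ganglioside sialyltransferase, 4.27 CPM ± 6.9 against 69.3 CPM ± 22.5, and SBK1, a kinase, 10.6 CPM ± 19.4 against 82.9 CPM ± 22.2. Each was lower in 10 of 10 retinas, again among genes chosen for their direction.

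The other 4 of the 8 genes with the largest decreases were nearly undetected in OPN1SW-dominant cones. TMEM74 and RET, a receptor tyrosine kinase, had 1 UMI each there, LRP4 2 UMIs and ISL2, a LIM homeobox factor, 3 UMIs. In OPN1LW-dominant cones they stood at 25.7, 29.3, 34.8 and 33.8 CPM. By the counts alone the ratio of OPN1LW-dominant to OPN1SW-dominant cones was 38.9 for TMEM74 (95% exact counting interval 6.96 to 1536), 45.0 for RET (8.07 to 1780.0), 30.1 for LRP4 (8.33 to 249) and 15.7 for ISL2 (5.35 to 76.0).

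**Figure D3:**
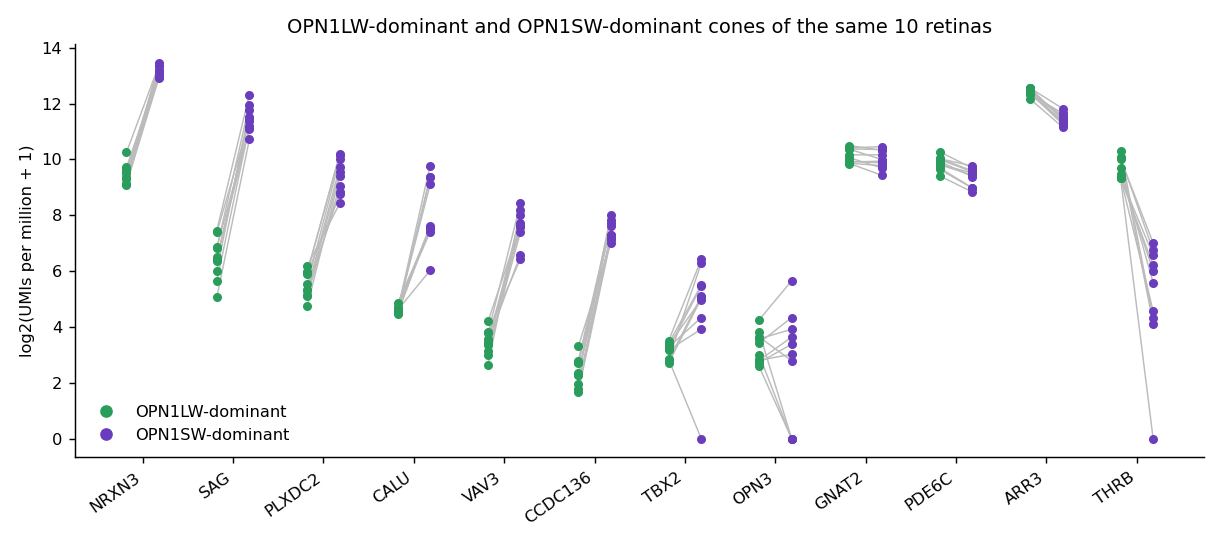
Levels of 12 genes in OPN1LW-dominant (green) and OPN1SW-dominant (purple) cones of 10 retinas, as log2(CPM + 1), with a grey line joining the sums of 1 retina. SAG, NRXN3, PLXDC2, CALU, VAV3 and CCDC136 rise and THRB and ARR3 fall in 10 of 10 retinas, while OPN3 goes either way.

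The phototransduction machinery behind the pigments was measured with a list of 23 genes, of which 14 had a UMI and 13 were tested. SAG was the only one that was higher (3.61% of all features) and 10 were lower (9.03% of all features), while GUCY2D (guanylate cyclase) and CRX (a photoreceptor transcription factor) passed in neither direction. Their median log2 difference was -0.57, beside -0.17 for all features. ARR3 was the most lowered, with 2787 CPM ± 405 in OPN1SW-dominant cones and 5499 CPM ± 470.0 (SD, n = 10 each) in OPN1LW-dominant cones, lower in 10 of 10 retinas. Relative to the median of all features it fell by 1.11 on the log2 scale, or by 1.05 with DESeq2's size factors. Among the lower genes, ARR3, PDE6C, PDE6H, GNAT2 and GRK7 are markers by which cones were gated. The part of the gate in their differences and in the shares of the kinds was not tested.

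The changes of the other cone genes were smaller. Relative to the median of all features, RCVRN fell by 0.61, RGS9BP (anchor of the GTPase-activating complex) by 0.61, PDE6C by 0.60, SLC24A2 (the cone ion exchanger) by 0.51, GRK7 by 0.49, PDE6H by 0.40, RGS9 by 0.33 and GNAT2 by 0.24 on the log2 scale. GNAT2 stood at 1048 CPM ± 233 against 1147 CPM ± 201 (SD, n = 10 each) and was lower in 8 of 10 retinas. GNB5 passed by edgeR (adjusted p = 0.0393) although it was lower in only 5 of 10 retinas, and not with DESeq2's size factors (adjusted p = 0.512). With DESeq2's size factors 9 genes of the list were lower, with DESeq2 8, and in nuclei with at least 5 cone opsin UMIs 5.

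Among 15 genes of retinoid handling, 10 were tested. RDH10, a retinol dehydrogenase, was higher by 0.53 ± 0.19 (SE) on the log2 scale (edgeR adjusted p = 0.0482), with 62.2 CPM against 36.8 CPM and an increase in 7 of 10 retinas. It did not pass under DESeq2 (adjusted p = 0.0556) or in nuclei with at least 5 cone opsin UMIs (0.958). With no filter on low counts no gene of this list passed as higher. The same held when Infancy 4, Mature 1, Mature 4, Senile 1, Senile 3 or Senile 5 was left out. DHRS3, a retinal reductase, passed as lower (edgeR adjusted p = 0.0156) on 1 UMI in OPN1SW-dominant cones against 5.46 CPM, and was not called by DESeq2 (adjusted p = 0.414). OPN3 did not separate the kinds: it was 11.6 CPM ± 14.7 in OPN1SW-dominant and 9.28 CPM ± 4.2 in OPN1LW-dominant cones (SD, n = 10 each), a log2 difference of -0.01 ± 0.44 (SE, edgeR adjusted p = 0.995).

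Of 64 markers of the other classes, 27 from 8 classes could be tested, none of them from astrocytes or microglia. By edgeR 0 of the 27 were higher in OPN1SW-dominant cones and 4 were lower, beside 3.61% and 9.03% of all features. With 27 genes these counts cannot be told from those shares. Cones had also been gated by these same markers, and nuclei mixing markers of several classes were set aside beforehand. The gate thus limited how high these markers could stand in either kind, and no absence of RNA from other classes is read from the counts. The summed level of 9 rod markers, of which 4 were tested, was 78.5 to 287 CPM in OPN1SW-dominant and 88.5 to 183 CPM in OPN1LW-dominant cones. That of 8 bipolar markers was 49.2 to 214 CPM against 97.9 to 278 CPM.

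The reverse view took cones by the S-cone list and read the opsins in them, which the list did not use. A cone counted as S-list when SAG, VAV3, PLXDC2, CCDC136 and TBX2 together had at least 1500 CPM and 5 UMIs with at least 2 of the genes detected, and as low-list below 750 CPM. These limits were set after seeing the data, from 4 definitions looked at. There were 789 S-list cones (4.90%), 14702 low-list cones (91.3%) and 614 between.

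OPN1SW was detected in 458 of the 789 S-list cones (58.0%) and in 22 of the low-list cones (0.1496%), with median depths of 3672 and 3288 UMIs. The S-list cones held 1201 UMIs of OPN1SW, which is 90.4% of those in cones. In the 14 retinas with at least 10 S-list cones, OPN1SW ranged from 71.8 to 609.9 CPM with a median of 277 CPM, and the log2(CPM + 1) difference from low-list cones was 7.59 ± 0.94 (SD), positive in 14 of 14 retinas. The list genes were already higher in OPN1SW-dominant cones of the same nuclei, so that this is a description and no test. The share of cone OPN1SW UMIs held was 87.1% when CCDC136 was left out of the list, 75.1% when 3 genes had to be detected, and 68.8% when SAG was left out and the minimum set to 500 CPM and 3 UMIs.

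OPN1LW was lower but present in S-list cones. It ranged from 18.8 to 298 CPM with a median of 119.9 CPM, a log2 difference from low-list cones of -2.62 ± 1.07 (SD), lower in 14 of 14 retinas, likewise a description. It was still above the level in bipolar cells of the same retina in 14 of 14 retinas, by 3.03 ± 1.54 (SD) on the log2 scale. By processing version, OPN1LW in S-list cones had a median of 184 CPM (64.3 to 298) in the 7 retinas of version 5.0.1 and of 45.2 CPM (18.8 to 277) in the 7 of version 7.0.1. These ranges overlapped, and the difference was not tested. THRB stood at 185 to 676 CPM against 45.6 to 246 CPM, beside 624 to 1226 CPM in low-list cones. The part of cones of the other kind that met the list's limits was not tested. By stage, OPN1SW in S-list cones averaged 297, 369 and 235 CPM in infant, mature and senile retinas, and no contrast passed (exact permutation tests, lowest p = 0.198).

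The study's stages were compared next. In cones, OPN1LW stood at 471, 637, 517, 437 and 508 CPM in Infancy 1 to 5. It stood at 818, 609, 513, 358 and 592 CPM in Mature 1 to 5, and at 910.4, 466, 840.2, 339 and 396 CPM in Senile 1 to 5. The ranges overlapped, with the widest spread among the senile retinas.

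OPN1SW stood at 12.2, 13.8, 8.28, 33.0 and 15.9 CPM in the infant retinas. It stood at 17.1, 15.3, 16.6, 29.2 and 13.1 CPM in the mature retinas and at 20.5, 7.48, 27.1, 7.02 and 22.0 CPM in the senile ones. Infancy 4 and Mature 4 lay well above the other retinas of their stages, and the stages overlapped.

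In the edgeR fit over 15 retinas with stage and processing version as terms, 3 members passed the filter in cones and none was called in any contrast. None of the 3 had an unadjusted p under 0.05 in cones, and DESeq2 called none. Over all 16171 features tested, 1.41% were called in Mature against Infancy, 1.91% in Senile against Infancy and 0.00618% in Senile against Mature. OPN1LW differed by 0.21 ± 0.22, 0.17 ± 0.22 and -0.04 ± 0.22 (log2, SE) in these contrasts, and OPN1SW by 0.07 ± 0.35, -0.15 ± 0.36 and -0.22 ± 0.35.

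The machinery gave no call by stage. None of the 13 phototransduction genes tested in cones was called in any contrast by edgeR or DESeq2. At an unadjusted p under 0.05 there were 0 in Mature against Infancy, 4 in Senile against Infancy (ARR3, GRK7, RCVRN and RGS9) and 3 in Senile against Mature. Of all features in cones, 11.5%, 10.6% and 8.72% had such a p in these contrasts. The nearest was RCVRN in Senile against Infancy, with a log2 difference of 0.39 ± 0.12 (SE, edgeR adjusted p = 0.157). Of the 10 retinoid genes tested none was called either, with 0, 1 and 3 at an unadjusted p under 0.05.

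The balance between the pigments was tested as 1 value per retina. OPN1SW was 2.52%, 2.13%, 1.58%, 7.01% and 3.03% of the cone opsin UMIs in cones of Infancy 1 to 5. It was 2.05%, 2.45%, 3.13%, 7.54% and 2.17% in Mature 1 to 5 and 2.20%, 1.58%, 3.12%, 2.03% and 5.26% in Senile 1 to 5. The mean differed by 0.21 percentage points between Mature and Infancy, by -0.42 between Senile and Infancy and by -0.63 between Senile and Mature (2-sided exact permutation tests of 5 against 5 retinas, p = 0.730, 0.690 and 0.611, adjusted p = 0.730 for each). The smallest p of this design is 0.00794. With retinas compared within a processing version, the Mature against Infancy difference turned to -0.28 percentage points (exact permutation test, p = 0.79).

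OPN1SW-dominant cones made up 1.85%, 1.82%, 1.08%, 5.66% and 3.05% of cones with at least 2 cone opsin UMIs in the infant retinas, 2.05%, 2.19%, 3.47%, 6.16% and 2.00% in the mature retinas, and 1.56%, 0.583%, 3.597%, 0.755% and 4.54% in the senile ones. The stages overlapped here too, with differences of 0.48, -0.48 and -0.97 percentage points in the same order (exact permutation tests, p = 0.611, 0.675 and 0.397, adjusted p = 0.675 for each). A retina gave between 100 (Mature 5) and 1907 (Mature 1) such cones, so that a single share is loose: 2.00% in Mature 5 has a 95% Wilson interval of 0.5502% to 7.001%, which covers counting error only.

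The pigment balance also differed by processing version. This comparison was added after seeing the data. The retinas of the versions differed in other ways too. Ganglion nuclei numbered 499 to 723 in retinas of version 5.0.1 and 26 to 227 in those of version 7.0.1. Median UMIs per barcode were 1461 to 3068 against 2268 to 5611. The part of such differences in the comparisons by version was not tested. OPN1SW was 2.07% of the cone opsin UMIs on average in the 7 retinas of version 5.0.1, from 1.58% to 2.52%, and 4.16% in the 8 retinas of version 7.0.1, from 2.03% to 7.54% (exact permutation test, p = 0.0141). The share of OPN1SW-dominant cones was 1.59% against 3.65% (exact permutation test, p = 0.0129). The levels behind the ratio differed less clearly: OPN1LW was 633 against 498 CPM (exact permutation test, p = 0.143) and OPN1SW 13.5 against 20.5 CPM (p = 0.0876). With the stage labels permuted only within a version, no stage difference of either share had a p under 0.05. S-list cones, typed without opsins, were not more frequent in version 7.0.1. They made up 4.32% to 6.18% of cones in version 5.0.1 and 1.92% to 5.20% in version 7.0.1. Within them OPN1SW had a median of 168 CPM (71.8 to 287) in 7 retinas of version 5.0.1. It was 410 CPM (152 to 609.9) in 7 of version 7.0.1. These values by version were not tested.

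**Figure D4:**
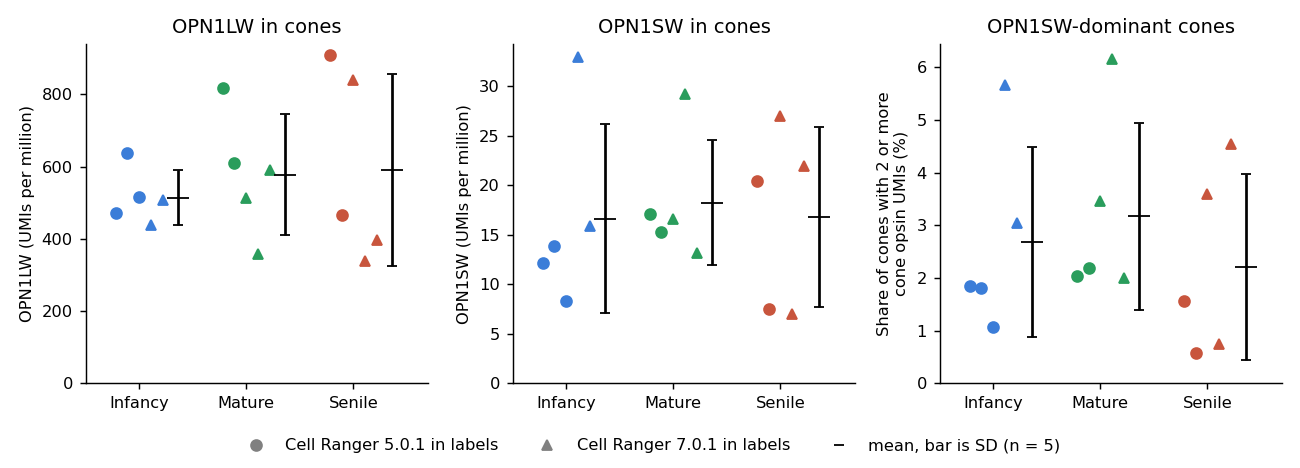
OPN1LW and OPN1SW in cones (CPM) and the share of OPN1SW-dominant cones (%) in 5 infant, 5 mature and 5 senile retinas, with circles for version 5.0.1, triangles for 7.0.1, and the mean and SD beside each stage. The stages overlap in all 3 panels, and the retinas with the highest OPN1SW-dominant shares, 5.66% and 6.16%, are triangles.

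OPN3 had the broadest pattern. It was highest on average in horizontal cells, with 32.6 CPM ± 19.9 (SD, n = 15). The mean in pigment epithelium was 30.9 CPM ± 29.0 (SD, n = 5), but this class had only 17 OPN3 UMIs in 167 nuclei. Pooled over retinas it stood at 22.1 CPM (Poisson interval 12.9 to 35.4 CPM), beside 21.3 CPM (19.8 to 22.9 CPM) in ganglion cells. Pigment epithelium is therefore not placed above ganglion cells. By the mean over retinas, ganglion cells had 21.1 CPM ± 6.2, bipolar cells 16.3 CPM ± 5.6 and amacrine cells 11.5 CPM ± 3.6 (SD, n = 15 each). Rods had 10.7 CPM ± 5.7 (SD, n = 14) and cones 10.2 CPM ± 4.6, microglia 6.5 ± 9.7, Müller glia 5.4 ± 3.2 and astrocytes 2.5 ± 4.8. Vessels had no OPN3 UMI in 117 nuclei, which allows a level of up to 12.2 CPM at a floor of 3 UMIs, so that they cannot be placed below amacrine cells, rods or cones.

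The order of these levels was only partly fixed. Horizontal cells were the highest of the 7 classes measured in all retinas in 11 of 15 retinas, and exceeded ganglion cells in 12 of 15, by 0.22 ± 1.53 (SD) on the log2(CPM + 1) scale, within the spread. Without Senile 2, which had no OPN3 UMI in 36 horizontal nuclei, an alternative chosen after seeing the data, the difference was 0.56 ± 0.86 (SD, n = 14) and positive in 12 of 14, also within the spread. Ganglion cells exceeded bipolar cells by 0.37 ± 0.56 in 11 of 15 retinas and bipolar cells exceeded amacrine cells by 0.45 ± 0.45 in 14 of 15. Amacrine cells and cones differed by 0.20 ± 0.63, positive in 9 of 15. These are descriptions without a test.

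Detection per nucleus was compared at an equal depth. With nuclei thinned to 1000 UMIs, OPN3 was found in 3.51% of horizontal cells, 2.00% of ganglion cells, 1.46% of bipolar cells, 1.25% of amacrine cells, 1.11% of cones and 0.443% of Müller glia. Pigment epithelium (1.79%) lay below ganglion cells, rods (1.06%) below cones and microglia (0.322%) below Müller glia, unlike their mean levels. Before thinning the first 6 shares were 11.4%, 11.3%, 4.09%, 4.71%, 4.11% and 1.28%, at median depths between 2367.5 UMIs in Müller glia and 5331 UMIs in ganglion cells, and bipolar cells then lay below amacrine cells and cones.

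By stage, OPN3 passed the test in no class. In amacrine cells it stood at 15.9, 13.3, 16.2, 13.1 and 14.3 CPM in Infancy 1 to 5 and at 9.33, 11.2, 8.55, 9.18 and 15.8 CPM in Mature 1 to 5. In Senile 1 to 5 it stood at 15.7, 8.03, 5.75, 8.62 and 7.31 CPM. Senile 1 overlapped the infant retinas, and the other 4 senile retinas lay below all 5 of them. The log2 differences were -0.42 ± 0.23 for Mature against Infancy, -0.76 ± 0.25 for Senile against Infancy and -0.34 ± 0.25 (SE) for Senile against Mature. The largest had an unadjusted p of 0.00741 and an edgeR adjusted p of 0.289. In amacrine cells 0.59%, 1.03% and 0% of the 15772 features were called in these contrasts, with 1873, 1310 and 1606 at an unadjusted p under 0.05.

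In horizontal cells OPN3 leaned the other way. The levels were 27.2, 43.0, 26.0, 25.7 and 6.21 CPM in the infant retinas and 47.1, 24.4, 39.2, 26.0 and 12.8 CPM in the mature ones. The senile retinas had 80.4, 0, 38.4, 54.4 and 37.6 CPM, the 0 in Senile 2 coming from 36 nuclei. The log2 difference of Senile against Infancy was 0.99 ± 0.46 (SE), with an unadjusted p of 0.0421 and an edgeR adjusted p of 0.763. This fit was added after the class levels were seen. In the contrasts in the same order 0.175%, 0.311% and 0% of its 5142 features were called, with 380, 327 and 315 at an unadjusted p under 0.05. Whether the amacrine and horizontal differences differ from each other was not tested.

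OPN3 passed in none of the other classes tested. It differed by -0.52 ± 0.25, -0.16 ± 0.24 and 0.36 ± 0.26 (log2, SE) in ganglion cells and by -0.38 ± 0.21, 0.02 ± 0.20 and 0.40 ± 0.21 in cones, for Mature against Infancy, Senile against Infancy and Senile against Mature. In bipolar cells, added likewise, it differed by -0.27 ± 0.25, -0.58 ± 0.28 and -0.31 ± 0.27. The lowest edgeR adjusted p among these was 0.514. The shares of all features called were 0.812%, 1.25% and 0% in ganglion cells, the last beside 1023 features at an unadjusted p under 0.05, and 0.983%, 1.46% and 0.043% in bipolar cells. In Müller glia OPN3 did not pass the filter on low counts and was not tested. Its level there was 8.30 CPM ± 3.52 in Infancy, 3.76 CPM ± 1.56 in Mature and 4.23 CPM ± 2.42 in Senile retinas (SD, n = 5 each), with overlapping ranges, and the shares of all features called there were 0.963%, 1.09% and 0.0166%. Rods, for which no stage fit was made, had 8.09 CPM ± 5.12 (n = 5), 9.64 CPM ± 6.53 (n = 5) and 15.2 CPM ± 3.24 (SD, n = 4) in the same order, also with overlapping ranges.

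**Figure D5:**
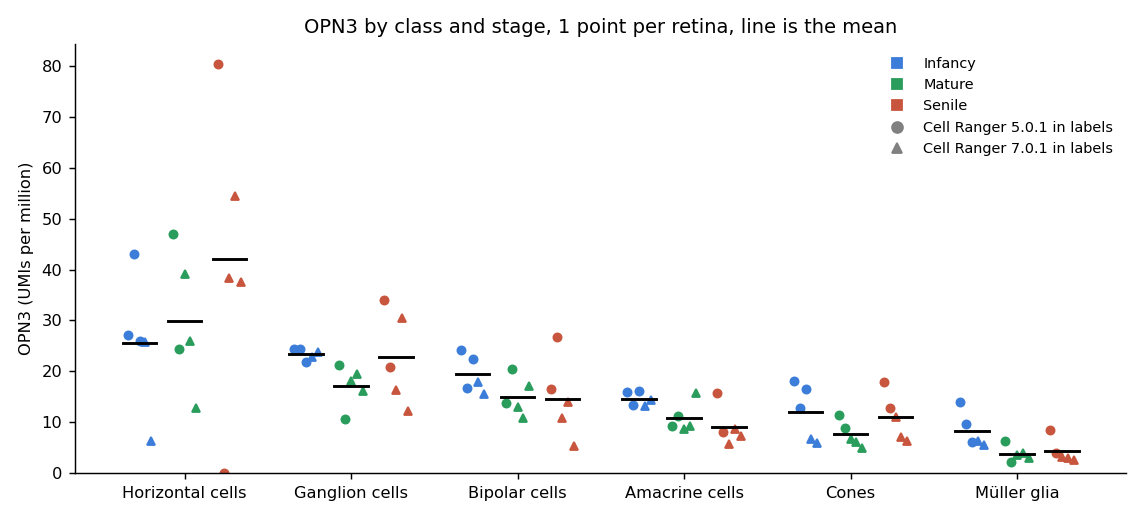
OPN3 (CPM) in 6 classes, with 1 point per retina coloured by stage, circles for version 5.0.1, triangles for 7.0.1, and a line at the mean of each stage. The stages overlap in each class, and in cones the 7 circles, at 8.92 to 18.1 CPM, lie mostly above the 8 triangles, at 4.92 to 10.98 CPM.

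In cones OPN3 differed by processing version, between retinas that also differed in depth and in ganglion nuclei, as given above. It was 14.1 CPM on average in the 7 retinas of version 5.0.1, from 8.92 to 18.1 CPM, and 6.83 CPM in the 8 of version 7.0.1, from 4.92 to 10.98 CPM (exact permutation test, p = 4.66e-04). The version term of the edgeR fit was -1.06 ± 0.17 (log2, SE; adjusted p = 9.2e-04). The same term called 4338 of the 16171 features in cones (26.8%). Senile 3, of version 7.0.1, was the retina of that group that overlapped the other.

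OPN4 was rare and lay in inner retinal neurons. Of its 17 UMIs in 16 nuclei that passed the limits, 6 were in 5 ganglion nuclei, 6 in amacrine nuclei and 5 in nuclei without a class, and none was in cones, rods, bipolar cells or Müller glia. Of the 20 UMIs over all barcodes, 9 came from Mature 3. Against the highest other class, ganglion cells differed by 0.08 ± 0.48 (SD) on the log2 scale. The difference was positive in 4 of 15 retinas (exact sign-flip permutation test, adjusted p = 0.531). With 6 UMIs in ganglion cells, and none there in most retinas, this test cannot show whether their level is higher. Nothing is read from it. Pooled over retinas, OPN4 was 0.177 CPM in ganglion cells (Poisson interval 0.0649 to 0.385 CPM). In amacrine cells it was 0.118 CPM (0.0433 to 0.257 CPM), and the intervals overlapped. A comparison of OPN4-positive with other ganglion nuclei was planned for retinas with at least 3 positive nuclei. No retina had more than 2, so it was not run.

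The 5 OPN4-positive ganglion nuclei were described by a list of genes of photosensitive ganglion cells. TBX20, a T-box factor, was detected in 3 of the 5 nuclei and in 54 of the other 5366, at 353 against 5.28 CPM. EOMES, a T-box factor required for these cells, was detected in 2 of the 5 and in 160 of the 5366, at 62.3 against 6.28 CPM. ADCYAP1, the peptide PACAP, and RASGRP1, a Ras exchange factor, were each detected in 3 of the 5, against 1086 and 987 of the 5366. Of the channel genes, TRPC7 was detected in 2 of the 5 and in 728 of the 5366, and TRPC6 in 0 of the 5 and in 613 of the 5366 (0 against 24.8 CPM). IGF1, a growth factor, was detected in 1 of the 5 and in 128 of the 5366. The positive nuclei were deeper, with a median of 9490 UMIs against 5331 UMIs, and no test was made on these 5 nuclei.

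OPN5 had few UMIs, most of them in ganglion cells. Of 16 UMIs in 16 nuclei, 12 (75.0%) were in ganglion nuclei, 1 was in a cone and 3 were in nuclei without a class. The level in ganglion cells was above that of the highest other class in 7 of 15 retinas, with no UMI in the ganglion cells of the others. With 1 UMI in all other classes together the difference could hardly be negative, so no test is read from it. The 12 nuclei came from 7 retinas, 3 in Infancy 2, 2 each in Infancy 4, Mature 1 and Senile 5, and 1 each in Infancy 5, Mature 2 and Senile 2. Of the list of photosensitive ganglion cell genes, RASGRP1 was detected in 6 of the 12 (60.0 CPM), TRPC6 in 5 (90.1 CPM) and ADCYAP1 in 3 (30.02 CPM), and EOMES, TBX20, IGF1 and TRPC7 in 0, as was OPN4. EOMES and TBX20 were also rare in the ganglion nuclei without OPN4, as given above, so that 0 of 12 does not show a lower share. Over all nuclei that passed the limits, OPN4 and OPN5 were each detected in 0.0134%, so that nuclei without a UMI are not shown to lack the gene.

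RGR was found mainly outside Müller glia. Of its 69 UMIs, 35 (50.7%) were in bipolar cells, 10 in 8 pigment epithelium nuclei, 4 in cones, 1 in rods, 1 in Müller glia and 18 in nuclei without a class. By level, pigment epithelium led with 13.0 CPM (95% Poisson interval 6.24 to 23.9 CPM), and the 8 nuclei came from 3 retinas. Infancy 3 gave 5 of the 10 UMIs from 11 nuclei, the other 4 retinas with at least 10 such nuclei gave none, and the pooled level without Infancy 3 was 6.96 CPM. Against the mean of the other classes, RGR in Müller glia differed by -0.03 on the log2 scale (exact sign-flip permutation test, adjusted p = 0.762). Against the highest other class the difference was -0.87 ± 1.85 (SD). With 1 UMI in Müller glia nearly every difference of either kind has to be 0 or negative. Neither is therefore read as a test, and no low level is read from them. A noncoding feature named LINC-RGR-1 likewise had many of its UMIs in bipolar cells, 29 of 59 (49.2%), and none in Müller glia. Unlike RGR, it had none in pigment epithelium and 4 in amacrine cells, where RGR had none.

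RRH was likewise not detected in most classes. Of 20 UMIs, 11 (55.0%) were in bipolar cells, 4 in cones, 2 in rods and 3 in nuclei without a class, with none in pigment epithelium or Müller glia. By level, rods had 0.719 CPM (95% Poisson interval 0.0870 to 2.60 CPM), bipolar cells 0.133 CPM (0.0663 to 0.238 CPM) and cones 0.0555 CPM, and the intervals of rods and bipolar cells overlapped. At a floor of 3 UMIs, a count of 0 allows up to 0.133 CPM in Müller glia and up to 3.90 CPM in pigment epithelium, so that pigment epithelium cannot be placed. With 0 UMIs in Müller glia its difference from other classes could not be positive, so the comparison was not read as a test.

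As a last description, the genes with the pattern most like each opsin were sought over the mean levels of the 11 classes, among 8465 genes. OPN1SW was nearest to MMP20 (Pearson r 0.992), C4BPB (0.987) and EYS (0.986), and OPN1LW to PDE6C (0.989), EYS (0.982) and TRA (0.980). OPN3 was nearest to NOCT (0.958), GLOD4 (0.957) and LEMD2 (0.956). For OPN5 these were IRX1 (0.997), IRX4 (0.989) and SLC17A6 (0.986), and for OPN4 CYP4X1 (0.978), BCL11B and FAM110C (0.971 each). RGR was nearest to TSPAN10 (0.974), HNF4A (0.969) and TYRP1 (0.962), and RRH to PDE6B (0.987), GNAT1 (0.974) and NRL (0.947). PDE6C, SLC17A6, TYRP1, PDE6B, GNAT1 and NRL are themselves gate markers, the 11 points share libraries and depth, and the patterns of OPN4, OPN5, RGR and RRH rest on 16 to 69 UMIs. PDE6B, GNAT1 and NRL are rod markers, and only 2 of 20 RRH UMIs lay in rods, against 11 in bipolar cells. TYRP1 is a marker of pigment epithelium, where RGR had 10 of 69 UMIs. Among retinas with at least 10 such nuclei only Infancy 3 had any, with 5 UMIs.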

How the data were processed

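Nuclei of 15 retinas were read from the deposited matrices of raw UMI counts, which the authors made with Cell Ranger (5.0.1 or 7.0.1 per the labels) on the TS_3.0 genome. The limits per barcode were over 200 genes, below 6000 genes and less than 5% of UMIs from mitochondria. Nuclei were assigned to 11 classes by a multinomial fit on 79 marker genes, of which 9 had no UMI, and 5244 nuclei with markers of more than 1 class were set aside. No doublet caller was run.

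UMIs were summed per retina and class and tested with edgeR 4.0.16 (TMM, filter on low counts, quasi-likelihood test, stage and processing version as terms, Benjamini-Hochberg adjusted p under 0.05), with DESeq2 1.42.0 as an alternative, in R 4.3.3. Scripts were tested on simulated data. Exact permutation tests enumerated the splits or sign flips with numpy 2.4.6 in Python 3.11.15, and scipy 1.17.1 gave the Wilson and Poisson intervals. The members and gene lists were chosen with earlier results of these data known. Named genes were the members, the lists, and in the comparison of cones at most 8 per direction with the largest change, the same sign in 80% of retinas and at least 20 CPM in the higher kind. Intervals cover counting error only. The replicate numbers are not said to mark shared animals. The bipolar and horizontal fits, the S-list cones and the version comparisons were added after seeing the data.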

Additional observations from a re-analysis of the deposited data

Results flagged for a closer look

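Of 36 groups of 4 or 5 retinas, 5 held a retina far from the others of its stage by Dixon's criterion, which chance meets in about 1 group in 20. OPN1SW in cones was 29.2 CPM in Mature 4, above the other mature retinas at 13.1 to 17.1 CPM. OPN1SW was 7.01% of the cone opsin UMIs in Infancy 4 and 7.54% in Mature 4, while the other infant and mature retinas had at most 3.03% and 3.13%. OPN3 in amacrine cells was 15.7 CPM in Senile 1, and OPN3 in Müller glia was 8.48 CPM in the same retina, against at most 8.62 and 3.91 CPM in the other senile retinas. Infancy 4 and Mature 4 carry the version 7.0.1 and Senile 1 the version 5.0.1, and the part of the version in these values was not tested.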

How the results depend on the processing

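Under 423 alternatives to the stage fits of the members, 23 changed sign and none was called, and under 210 alternatives for the cone shares 10 changed sign and none was called. Of 539 alternatives for the genes named between cone kinds, 511 kept direction and call, 27 lost the call and 1 changed sign (GUCY2D, 0.10 with at least 5 cone opsin UMIs). The cause of these changes was not tested. OPN3 in cones, Senile against Infancy, became -0.20 with stage only, -0.19 with the replicate block, -0.0061 with DESeq2 and -0.00012 with no filter. OPN1LW in cones, Senile against Mature, became 0.0080 with a stricter gate, and the OPN1SW share, Mature against Infancy, -0.28 within versions. The difference of RGR in Müller glia from the highest other class, which is bound to be low with 1 UMI, lost its call at -0.81 (stricter gate) and -0.0328 (mean of the other classes). Between cone kinds DESeq2 called 1058 features and 460 passed with at least 5 cone opsin UMIs, where RET and LRP4 lost their calls (edgeR adjusted p = 0.122 and 0.166).

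Counts of called features are given for Mature against Infancy, Senile against Infancy and Senile against Mature. DESeq2 called 427, 504 and 67 in cones, 214, 249 and 52 in amacrine cells, 187, 209 and 48 in Müller glia, and 179 in the first and 6 in the last contrast in ganglion cells. With no filter they were 829, 922 and 318 in cones, 678, 535 and 481 in amacrine cells, 412, 511 and 140 in ganglion cells and 496, 477 and 284 in Müller glia. With stage only, amacrine cells had 37 and 101 in the first contrasts, ganglion cells 70 and Müller glia 65 in the first, and in the last cones had 0 and Müller glia 1. A stricter gate gave 61 in amacrine cells (first), and 0 in cones and 6 in Müller glia (last).

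Same-numbered retinas deviated together in cones (r over 0.1 in 12 of 15 pairs), but in 1 of 15 once the version was also removed, so the numbers were not taken as pairs. With the replicate number as a block, amacrine cells had 60, 107 and 1 calls and cones 0 in the last contrast.

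Leaving out 1 retina gave 150 to 246 (first) and 0 to 2 (last) calls in cones, 47 to 107 and 0 to 2 in amacrine cells, 71 to 152 and 0 to 2 in ganglion cells, and 57 to 126 and 2 to 9 in Müller glia. In cones OPN1SW ranged from -0.0592 to 0.41 (first) and -0.43 to 0.20 (second contrast), OPN1LW from -0.0359 to 0.30 (second) and -0.27 to 0.0757 (last), and OPN3 from -0.0755 to 0.12 (second). The OPN1SW share ranged from -0.80 to 1.15, -1.02 to 0.52 and -1.24 to 0.39 percentage points, and the OPN1SW-dominant share from -0.27 to 1.22 (first) and -1.07 to 0.26 (second). In S-list cones OPN1SW ranged from -106 to 17.1 CPM (second), and the percentage of S-list cones from -0.90 to 0.0865 (first). The planned comparison of OPN4-positive ganglion nuclei and its alternatives were not run, since no retina held 3 such nuclei. Depth limits OPN4, OPN5, RGR and RRH, each with at most 69 UMIs in nuclei.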
